A study of Mus musculus with 6 samples.

Results

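Messenger RNA for 10 genes of haem breakdown and iron handling was measured in a murine cancer cell culture expressing rat her-2/neu, which encodes a growth factor receptor of the ErbB family. The genes are Hmox1, Hmox2, Blvra, Blvrb, Slc48a1, Alas1, Fth1, Ftl1, Slc40a1 and Tfrc, and their members were all probes whose platform annotation carries one of these symbols, 16 of 45281 probes on an Illumina mouse bead array. Of these, 13 were above background on at least 3 of 6 arrays and were tested, and each of the 10 genes kept at least 1 tested probe. The groups were 3 arrays of untreated cells and 3 arrays of the same cells given 8 µM withaferin A, a steroidal lactone of Withania somnifera, for 6 h, diluted in culture medium. Both groups were grown in DMEM with 20% FBS, gentamicin and L-glutamine. Cells of passages 2 to 4 were used, which the labels do not tie to single arrays. The labels name no other cells in the cultures. The title of the series asks about the stress pathway and immunity against tumours.

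Haem oxygenases open the haem ring and release iron, carbon monoxide and biliverdin, and biliverdin reductases turn biliverdin into the antioxidant bilirubin. The freed iron is stored in ferritin, a shell of heavy and light chains, or leaves the cell through ferroportin, while the transferrin receptor brings iron in. Transcription of Hmox1, the ferritin genes and Slc40a1 is held down by the haem-sensing repressor BACH1 and driven by NRF2, which is restrained by KEAP1. Iron regulatory proteins act on the transcripts afterwards: when iron is scarce they block translation of both ferritin chains and protect Tfrc mRNA from decay. An array measures the amount of transcript and not that later step.

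Hmox1, Blvrb, Slc48a1 and Ftl1 rose after withaferin A, and no probe of the 10 genes fell past the threshold. Hmox1 rose by 6.89-fold to 20.1-fold depending on how background was treated, since 2 of its 3 untreated values were not above background. Both probes of Blvrb rose 5.77-fold and 6.83-fold, Slc48a1 rose 5.54-fold and Ftl1 rose 2.14-fold. In all, 5 of 13 tested probes, belonging to 4 genes, passed an adjusted p of 0.05 in limma, and the 5 were higher with withaferin A. Over all 19077 tested probes 5.90% passed, 2.55% higher and 3.34% lower. Values of the 2 groups did not overlap for 8 of the 13 probes, against 29.1% of all tested probes. In 7 of the 13 the treated group was the higher one, against 14.9% of all tested probes. The median log2 change was 0.65 over the 13 probes and 0.014 over all tested probes. Hmox1 passed the detection filter mainly through its withaferin A arrays, so these counts describe the genes and do not support a statement on the set. The remaining 8 tested probes, of Hmox2, Blvra, Alas1, Fth1, Slc40a1 and Tfrc, did not pass.

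**Figure D1:**
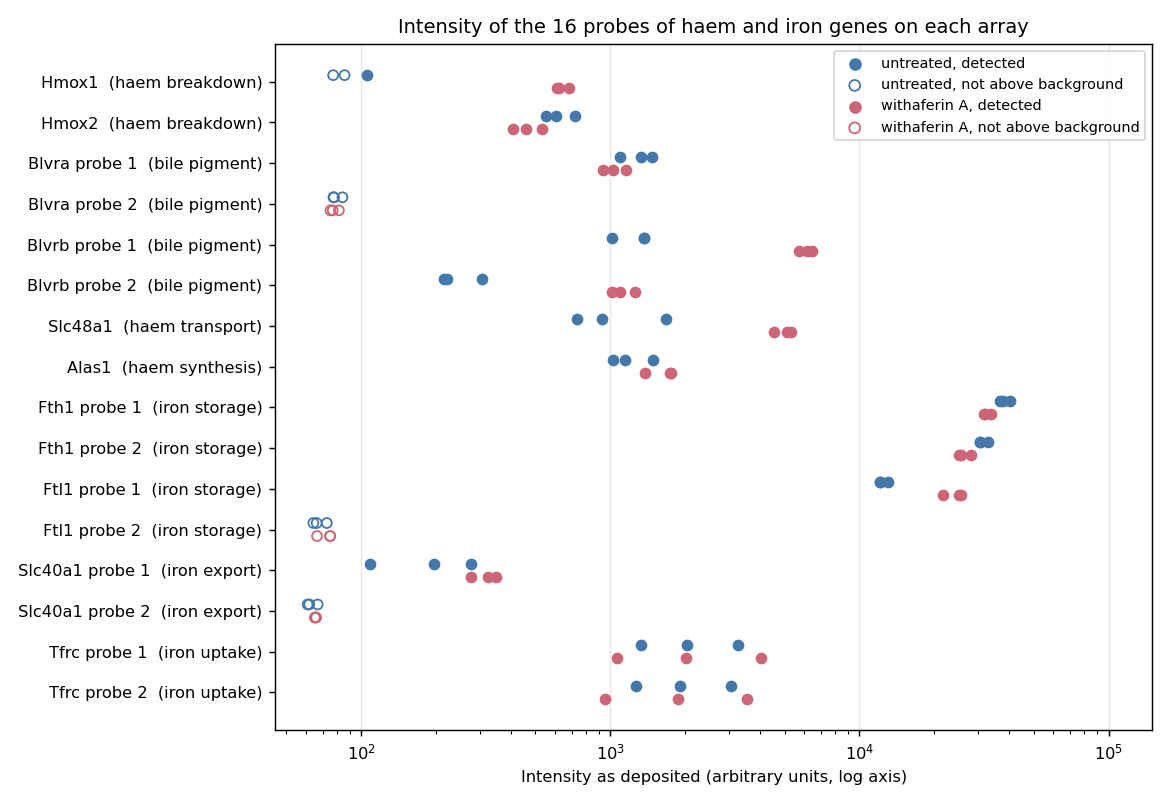
Intensity as deposited (arbitrary units, log axis) of each of the 16 probes on the 3 untreated and 3 withaferin A arrays, each point 1 array, open where the probe was not above background. The withaferin A arrays lie to the right of the untreated arrays for Hmox1, both Blvrb probes, Slc48a1 and the brighter Ftl1 probe. They also do so, by a narrow margin, for the brighter Slc40a1 probe, which did not pass.

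Median intensity over the tested probes was 218.5 to 235.9 on untreated arrays and 191.8 to 202 on withaferin A arrays, so the treated arrays were dimmer before normalization, and between 18275 and 20104 probes per array were detected. Over all probes 487 were higher and 638 lower, but 276 were higher and 2683 lower without normalization between arrays, where the median change was -0.22, and 296 were higher and 2190 lower with median scaling. The total of 1125 fell to 766, 720 or 494 without untreated array 1, 2 or 3, and to 382 or 505 without withaferin A array 1 or 2. It rose to 1550 without withaferin A array 3. Of 5 epithelial markers 4 were detected, Krt8 and Krt18 brightly, while Epcam was not above background on any array, and Vim was the 1 of 5 mesenchymal markers detected. Krt19 was above background on 2 arrays of each group. The summed intensity of the 5 epithelial markers was 14584.7 to 18704.4 on untreated and 11119.7 to 14172.2 on withaferin A arrays. That of the 5 mesenchymal markers was 10555 to 12794.6 and 7832.5 to 13306. These sums are not normalized. After normalization none of the 4 epithelial markers passed, with log2 changes of -0.33 (Cdh1), -0.14 (Krt8), -0.70 (Krt18) and 0.35 (Krt19). The part of these differences in the results below was not tested. Among the other markers, 1 of 4 macrophage markers on the array was detected on 3 arrays (Csf1r, intensity 81.8 to 92), and none of 4 endothelial and 3 erythroid markers was detected on as many. The mouse Erbb2 probe read 156.3 to 197.6 over the 6 arrays, and whether it detects the rat transgene was not tested.

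Hmox1 encodes heme oxygenase 1, the inducible enzyme that opens the haem ring. Its single probe (ILMN_2788073) read 85.7, 105.6 and 77.1 in the 3 untreated samples, in replicate order, and 623, 679 and 609.2 in those given withaferin A. All treated arrays were far above all untreated arrays, and only untreated array 2 was above background in its group. On the normalized log2 scale the mean went from 4.98 ± 0.42 to 9.31 ± 0.02 (SD, n = 3 each), a change of 4.33 or 20.1-fold (SE 0.21, limma adjusted p = 9.76e-06). The size of that rise depends on how background is treated. It was 6.89-fold without background correction, where the offset of 16 was still added, and 10.1-fold with correction and an offset of 50 in place of 16. It was 8.00-fold in the deposited value table, which was tested within same-numbered pairs because its values are centred on them. It passed under all 16 alternatives (adjusted p 1.45e-07 to 0.00273). In bulk RNA, more cells with the transcript and more transcript per cell cannot be told apart.

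Hmox2 encodes heme oxygenase 2, the constitutive form of the same enzyme. Its probe (ILMN_2893749) read 607.5, 722.7 and 553.5 without treatment and 406.5, 459.8 and 533.1 after withaferin A. Raw treated values were lower throughout, but the normalized groups overlapped. Its log2 change of -0.21 did not pass (95% interval -0.60 to 0.17, limma adjusted p = 0.483), so a rise of more than 1.13-fold lies outside the interval of this probe. Relative to Hmox2 on the same array, Hmox1 shifted by 4.54 on the log2 scale, or by 2.97 without background correction and 3.54 with an offset of 50, settings chosen for this shift after seeing the data. An exact two-sided permutation test of that shift gave p = 0.1, the smallest that 3 against 3 arrays can give, as it did for both other partner pairs described here (3 pairs, adjusted p = 0.1).

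By a likeness rule, the 3 genes whose mean-centred log2 values over the 6 arrays lay closest to Hmox1 were Srxn1, Clec4d and Nqo1, out of 9477 genes compared. Which genes these are depends on the size of the Hmox1 rise and so on the background setting: they were Gclm, Dppa5a and Abcc4 without background correction, and Nqo1, Srxn1 and Dppa5a with an offset of 50, both run after seeing the data. Srxn1, which reduces hyperoxidised peroxiredoxins, read 563.2, 645.2 and 474.2 without treatment and 7678.9, 7095.3 and 5363.1 with withaferin A. Nqo1, a quinone reductase, read 345, 407.3 and 410.4, then 3116, 3381.3 and 4105.9. Both had every treated array above every untreated one. The likeness rule selects for this, since the Hmox1 groups lay far apart, so it is not a separate result. Clec4d, a C-type lectin receptor known from myeloid cells, read 77.7, 84 and 79.6 without treatment, none of them above background, and 451.4, 373 and 394.5 after withaferin A. Beside the macrophage markers given above, its cellular source was not tested.

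The biliverdin reductases parted in the same way as the oxygenases. Blvrb encodes biliverdin reductase B, also known as flavin reductase, and Blvra encodes biliverdin reductase A, which makes the main adult form of bilirubin. The brighter Blvrb probe (ILMN_2792868) read 1017.2, 1359.4 and 1367.9 in untreated cells and 5733.8, 6138.5 and 6440.4 after withaferin A. Every treated array stood far above every untreated one. This probe changed by 2.53 on the log2 scale (SE 0.19, limma adjusted p = 0.000105). The dimmer probe (ILMN_2770917) read 220.2, 305.5 and 215.5, then 1091.2, 1013.8 and 1255.5, a log2 change of 2.77 (SE 0.20, adjusted p = 9.35e-05). Both probes of Blvrb passed under all 16 alternatives, with rises of 5.08-fold to 7.09-fold when all arrays were kept.

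Blvra did not pass. Its detected probe (ILMN_1257284) read 1470.7, 1327.7 and 1095.1 in untreated cells and 1024.4, 931.4 and 1151.7 with withaferin A, and the groups overlapped. The difference on the log2 scale was -0.08 (95% interval -0.46 to 0.30, limma adjusted p = 0.805), and it turned to 0.04 without withaferin A array 2. The other Blvra probe (ILMN_2565117), annotated to a different cDNA, read 75.2 to 84 and was not above background on any array. Within arrays Blvrb shifted by 2.61 on the log2 scale relative to Blvra (SE 0.28, exact permutation p = 0.1, the smallest possible).

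Promoter sequence was matched by symbol for 7 of the 10 genes, in 13 windows of 300 bases around annotated gene starts (RefSeq, GRCm38.p6). Hmox1, Slc48a1 and Slc40a1 were not matched. The windows were searched on both strands for the antioxidant response element bound by NRF2, in its forms TGACNNNGC and TGAGNNNGC, for the heat shock element core GAANNTTC and for the CCAAT box (CCAAT). Blvrb and Blvra are shown because they differed in response and each holds 1 form of the antioxidant element, on the opposite strand. The 250 bases before each start are printed 5′ to 3′ on the gene's strand, with matches to any of the 4 motifs in capitals.
Blvrb, chr7:27447728-27447977, plus strand: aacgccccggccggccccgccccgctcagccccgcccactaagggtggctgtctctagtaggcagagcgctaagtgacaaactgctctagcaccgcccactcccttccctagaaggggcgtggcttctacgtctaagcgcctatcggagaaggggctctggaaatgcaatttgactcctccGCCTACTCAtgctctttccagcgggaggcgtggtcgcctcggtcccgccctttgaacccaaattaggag
Blvra, chr2:127070407-127070656, plus strand: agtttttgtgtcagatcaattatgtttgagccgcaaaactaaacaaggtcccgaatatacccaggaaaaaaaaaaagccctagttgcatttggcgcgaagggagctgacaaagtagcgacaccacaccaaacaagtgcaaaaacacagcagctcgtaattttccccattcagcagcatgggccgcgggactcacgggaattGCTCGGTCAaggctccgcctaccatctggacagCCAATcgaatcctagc

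The TGAC form of the element lay at -49 in Blvra, counted from the gene start, and the TGAG form at -69 in the more upstream of the 2 Blvrb windows. Blvra also held a CCAAT box at -16. These matches are common: 12.4% of all 32851 promoter windows hold TGACNNNGC and 17.6% hold TGAGNNNGC. Of the 13 windows searched here, 1 held TGACNNNGC (Blvra) and 1 held TGAGNNNGC (Blvrb). Blvrb, which rose, and Blvra, which did not pass, therefore each held a match to 1 of the forms. Ftl1, which also rose, held neither form. Of the 13 windows, 2 held GAANNTTC (7.86% of all windows), and both were overlapping windows of Hmox2. A match describes the letters in a window and shows no binding.

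Slc48a1 encodes HRG1, which moves haem from endosomes and lysosomes into the cytosol. The Slc48a1 probe (ILMN_2912471) read 928.9, 1671.9 and 737.1 in untreated cells and 5108.2, 5302.6 and 4543.3 with withaferin A. The treated values were close together, while untreated array 2 stood above the other untreated arrays, and the highest of the 3 exceeded the lowest by 2.27-fold. The log2 change was 2.47 (SE 0.26, 5.54-fold, limma adjusted p = 0.000849), and it passed under all 16 alternatives, with 2.27 to 2.80 when 1 array was left out in turn.

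Alas1 encodes the first and rate-limiting enzyme of haem synthesis, whose transcript is reduced by free haem. Its probe (ILMN_2664040) read 1025.7, 1483 and 1145.4 without and 1372.1, 1732.4 and 1755.8 with withaferin A. After normalization every treated array was above every untreated array, but the raw values overlapped. The log2 change of 0.65 (95% interval for this probe alone 0.23 to 1.07) did not pass over all probes (limma adjusted p = 0.0719). It passed in 3 of 16 alternatives, namely the deposited value table with the test within pairs (adjusted p = 0.00502), array weights (0.0278) and the replicate number as a block (0.0424).

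**Figure D2:**
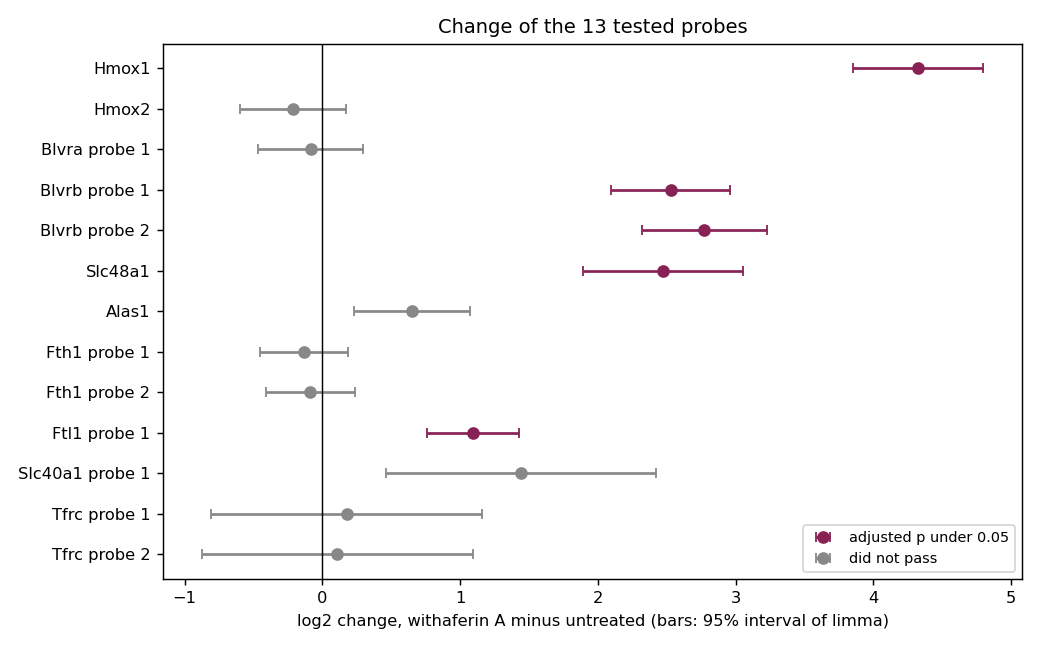
Log2 change (withaferin A minus untreated) of the 13 tested probes with the 95% interval of limma for each probe, filled in purple where the adjusted p was under 0.05 and grey where it was not. The 5 purple probes are those of Hmox1, Blvrb, Slc48a1 and Ftl1, while the intervals of Tfrc span changes from -0.87 to 1.16.

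Of the ferritin chains, Ftl1 rose and Fth1 did not pass. Ftl1 encodes the ferritin light chain, which helps form the iron core, and Fth1 encodes the heavy chain, which carries the ferroxidase activity. The bright Ftl1 probe (ILMN_1229517) read 12096.6, 13042.7 and 12117.6 in untreated cells and 21620.1, 25530.9 and 25095.7 in treated cells. All treated arrays were well above the untreated ones, whose values lay within 1.08-fold of each other. Ftl1 changed by 1.10 on the log2 scale (SE 0.15, 95% interval 0.76 to 1.43, limma adjusted p = 0.00353), and it passed under all 16 alternatives, at 1.94-fold to 2.14-fold with all arrays kept. A second Ftl1 probe (ILMN_2816707), annotated to the same transcript, read 64.2 to 75.1 and was not above background on any array. Both ferritin chains have near-identical processed copies in the mouse genome, so which copy a probe reads is uncertain.

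Fth1 was high in every sample. Its brighter probe (ILMN_2876066) read 40322.6, 37654.9 and 36602.8 in untreated cells and 33621.3, 31993.8 and 31505.1 with withaferin A, and the second (ILMN_2876071) read 30372.5 to 32882.6 and 24977.1 to 28000.7. Raw values were lower after withaferin A at both probes, as was the median of all tested probes. After normalization the log2 changes were -0.13 (95% interval -0.45 to 0.19, limma adjusted p = 0.615) and -0.09 (-0.41 to 0.24, adjusted p = 0.754). At the brighter probe every treated array was still below every untreated one, by a narrow margin, and at the second the groups overlapped. The highest intensity of any probe on an array was 39464.6 to 44259.3, so the brighter Fth1 probe lay close to the top of the measured scale, and the part of signal saturation in its value was not tested. Relative to Fth1 on the same array, Ftl1 shifted by 1.23 on the log2 scale with that probe (SE 0.13, exact permutation p = 0.1, the smallest possible), and by 1.18 with the dimmer Fth1 probe, a comparison added after seeing the data.

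The Ftl1 start region is shown because its gene rose and it holds 2 CCAAT boxes on the opposite strand, in capitals, at -78 and -34, a motif that 37.4% of all promoter windows hold and that also lies before Fth1 and Tfrc.
Ftl1, chr7:45459887-45460136, minus strand: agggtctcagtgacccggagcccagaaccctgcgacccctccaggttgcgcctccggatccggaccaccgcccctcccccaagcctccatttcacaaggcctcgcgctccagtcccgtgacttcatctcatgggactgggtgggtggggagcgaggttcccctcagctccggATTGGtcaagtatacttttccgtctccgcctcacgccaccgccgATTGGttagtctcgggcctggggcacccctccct

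Slc40a1 encodes ferroportin, the iron exporter. The detected Slc40a1 probe (ILMN_2747923) read 108.4, 274.9 and 195.9 in untreated cells and 348.2, 276.7 and 321.6 after withaferin A. The groups did not overlap, but untreated array 2 and withaferin A array 2 were nearly equal. Slc40a1 differed by 1.44 on the log2 scale (SE 0.44, 95% interval for this probe alone 0.47 to 2.42) and did not pass (limma adjusted p = 0.0835). It was 0.84 without untreated array 1, and it passed without untreated array 2 (1.87, adjusted p = 0.0425), with array weights (1.85, adjusted p = 0.0058) and in the deposited value table tested within pairs (1.03, adjusted p = 0.0193). A second probe (ILMN_1238359) read 60.9 to 66.8 and was not above background on any array.

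Tfrc encodes the transferrin receptor, through which cells take up transferrin-bound iron. Its brighter probe (ILMN_2619848) read 3268, 1321.1 and 2022.9 in untreated cells and 2008.2, 4005.4 and 1061.7 after withaferin A. The second probe (ILMN_2860804) read 3049.5, 1265.5 and 1897.3, then 1868.8, 3541.3 and 948.8, and thus had the same order of arrays. The groups overlapped, and the highest array exceeded the lowest by 2.47-fold among untreated and 3.77-fold among withaferin A arrays at the brighter probe. The log2 changes were 0.18 (95% interval -0.81 to 1.16, limma adjusted p = 0.845) and 0.11 (-0.87 to 1.09, adjusted p = 0.911), wide enough to hold a doubling. Their sign turned without untreated array 2 (-0.20 and -0.25), without withaferin A array 2 (-0.25 and -0.31) and without normalization between arrays (-0.013 and -0.079).

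**Figure D3:**
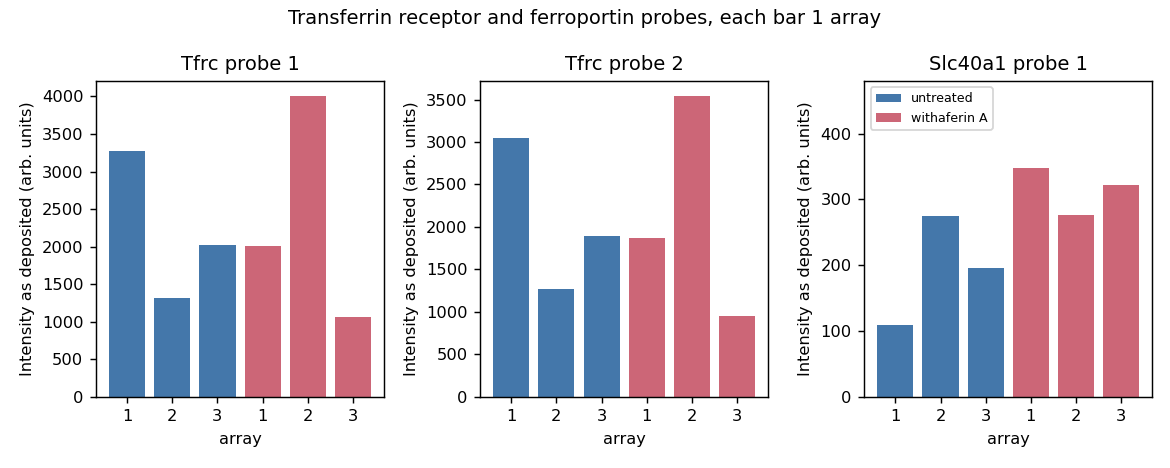
Intensity as deposited (arbitrary units) of both Tfrc probes and the detected Slc40a1 probe, each bar 1 array. Tfrc differs more among arrays of a group than between the groups, and both probes rank the arrays alike.

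**Figure D4:**
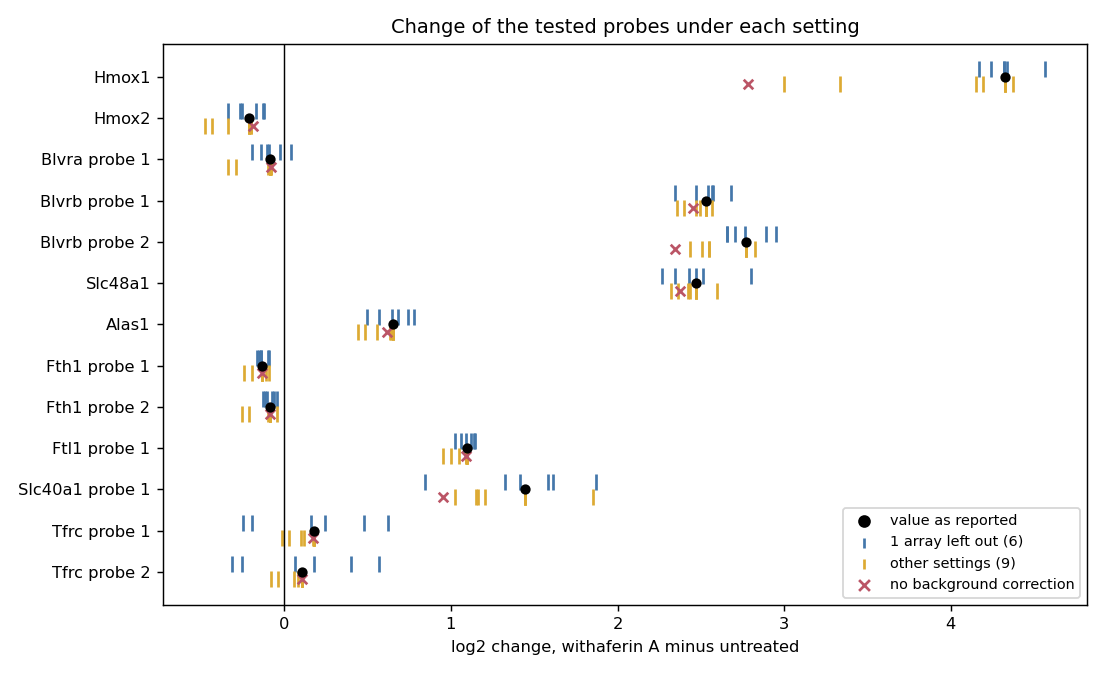
Log2 change of the 13 tested probes as reported (black), with 1 array left out in turn (blue ticks, 6), without background correction (cross) and under the other 9 alternatives (yellow ticks). Hmox1 falls from 4.33 to 2.79 without background correction, and only Blvra and Tfrc cross 0.

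Other genes of haem and iron biology were compared in 6 lists with 83 names, of which 78 were on the array and 57 were tested, with 1 probe a gene. Of the 57, 2 rose, 1 fell and 54 did not pass, against 6.83% called over all 9756 genes tested, 2.81% higher and 4.02% lower. The median log2 change over the 57 genes was 0.02, and 0.0054 over all genes. An unadjusted limma p under 0.05 was reached by 15 of the 57 genes and by 2532 of all 9756. By list it was 5 of 10 in haem transport and binding, 4 of 14 in iron uptake and release and 2 of 10 in haem synthesis. The other lists had 2 of 10 in iron-sulfur assembly, 0 of 6 in iron sensing and 2 of 7 among BACH1 and NRF2 regulators. Among the 10 genes above, 4 rose, with a median of 0.87. The count of 3 became 1 when any 1 of untreated arrays 2 and 3 and withaferin A arrays 1 and 2 was left out, 16 in the deposited value table tested within pairs and 10 with array weights. It became 8 both without normalization between arrays, with 1 higher and 7 lower, and with median scaling, with 2 higher and 6 lower. With the mean of a gene's tested probes it was 1 higher and 2 lower.

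Abcb6 encodes a porphyrin transporter and was the 1 of 10 haem transport and binding genes to rise. Its probe (ILMN_2833596) read 113.5, 140.8 and 127 in untreated cells and 162.5, 177.8 and 179.5 with withaferin A, so the groups did not overlap. The log2 change was 1.04 (SE 0.18, 2.06-fold, limma adjusted p = 0.0104), and it passed under all 16 alternatives (adjusted p up to 0.0462). The probe is dim, and the size of its rise depends on how background is treated. It was 1.49-fold without background correction, 1.69-fold with an offset of 50 and 1.56-fold in the deposited value table. That list had a median of -0.02. In haem synthesis 0 of 10 tested genes passed in limma and 2 had an unadjusted p under 0.05 (median 0.02). The gene with the smallest p there was Slc25a38, a mitochondrial glycine carrier, at a log2 change of 0.79 (95% interval for this probe alone 0.26 to 1.33, adjusted p = 0.0827), which passed in 3 of 16 alternatives.

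Cp encodes ceruloplasmin, the ferroxidase that works beside ferroportin, and was the 1 of 14 iron uptake and release genes to fall. The brightest Cp probe (ILMN_3083163) read 6252.1, 6539.6 and 4852.6 in untreated cells and 3168.4, 3320.1 and 1515.3 after withaferin A. All treated arrays were lower, and withaferin A array 3 was the lowest. Cp fell with a log2 change of -1.08 (SE 0.27, 2.12-fold lower, limma adjusted p = 0.0463), and the other probes changed by -1.32 (adjusted p = 0.0341), -2.15 (adjusted p = 0.0041) and -0.81 (adjusted p = 0.0868, not passing). The call at the brightest probe was lost without background correction, with an offset of 50, with no filter and without any 1 of untreated arrays 1 to 3 or withaferin A arrays 1 and 2 (adjusted p up to 0.174). Over the 14 genes the median was -0.06.

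Of the genes that sense iron or regulate BACH1 and NRF2, 1 passed. Keap1, the adaptor that directs NRF2 to degradation, read 1475.8, 1072 and 1123.6 in untreated cells and 1784.5, 1755.8 and 1721.6 with withaferin A at its brightest probe, with no overlap. Keap1 rose by 0.77 on the log2 scale (SE 0.17, 1.71-fold, limma adjusted p = 0.03), but 3 other tested probes of Keap1 changed by 0.53 to 0.56 and did not pass (adjusted p 0.112 to 0.132). The Keap1 call was lost without normalization between arrays, with no filter, and when either of untreated arrays 2 and 3 or either of withaferin A arrays 1 and 2 was left out (adjusted p up to 0.13). Its list of 7 tested genes had a median of 0.32. That list also held Nrf1 (log2 change 0.34), nuclear respiratory factor 1, which does not belong with the BACH1 and NRF2 regulators.

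The transcripts of both regulators named at the start did not pass. Bach1 had a log2 change of 0.05 (95% interval -0.46 to 0.55, limma adjusted p = 0.928), which turned to -0.21 without normalization between arrays and below 0 without untreated array 1 or withaferin A array 3 (-0.091 and -0.11). Nfe2l2, the gene of NRF2, had one of -0.16 (-0.52 to 0.20, adjusted p = 0.583). Among iron sensing genes 0 of 6 passed in limma and 0 had an unadjusted p under 0.05 (median -0.01). Ireb2 and Aco1 encode the iron regulatory proteins. Ireb2 changed by -0.10 (-0.59 to 0.39, adjusted p = 0.827), with 0.08 at its other probe and 0.16 without untreated array 3. Aco1 changed by 0.16 (-0.30 to 0.61, adjusted p = 0.679), or by -0.14 without normalization between arrays. The smallest p of that list was that of Neo1, a coreceptor of BMP signalling, at -0.32 (adjusted p = 0.249). In iron-sulfur cluster assembly 0 of 10 genes passed in limma, 2 had an unadjusted p under 0.05, the median was -0.04, and Nfu1, a cluster scaffold, had the smallest p at -0.50 (adjusted p = 0.109, passing in 4 of 16 alternatives).

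**Figure D5:**
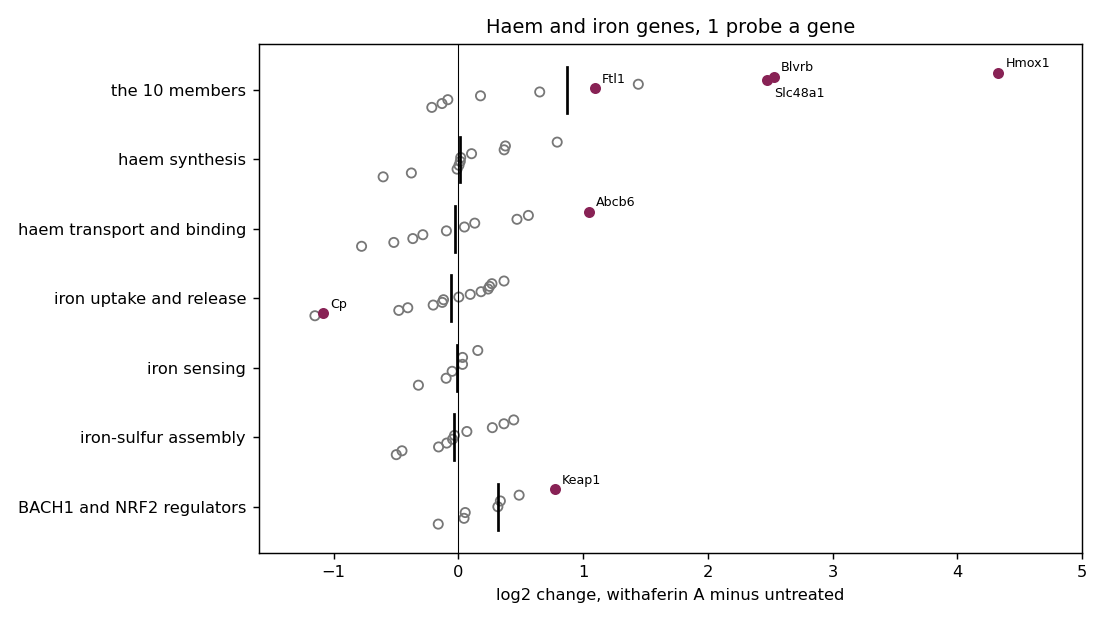
Log2 change of the 10 genes and of the 57 tested genes of the 6 lists, each point 1 gene by its brightest tested probe, filled and named where the adjusted p was under 0.05, with a black bar at the median. The list genes lie between -1.15 and 1.04, while Hmox1, Blvrb and Slc48a1 lie at 2.47 and above.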

How the data were processed

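The authors deposited one intensity per probe and array, which their file calls non-normalized, with a detection score. The deposited score rises with intensity and was read as 1 minus the detection p its header names. A deposited value table holds log2 values centred on the mean of the 2 same-numbered arrays, as its mirrored columns show, with its normalization between arrays unknown.

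Background correction (normexp, with negative controls estimated from detection p), an offset of 16, quantile normalization and log2 transformation used neqc (limma 3.58.1, R 4.3.3). A probe needed a detection p below 0.05 on 3 or more of 6 arrays and was then tested with lmFit and eBayes, two-sided, with Benjamini-Hochberg adjustment over all 19077 probes. Of 45281 probes, 34885 had 1 symbol, 18 several and 10378 were not listed. By gene ID, 34807 matched a GRCm38.p6 gene table, which changed 0 symbols. Of the array's genome build nothing is stated. A list gene was read at its brightest tested probe, and probes of a gene are numbered by brightness. Named genes were every probe of the 10, up to 3 called genes of each list or else the smallest p, Bach1, Nfe2l2, Ireb2, Aco1 and the 3 nearest to Hmox1. Members, lists and tests were chosen with earlier results of these data known. For the partner shifts and the genes nearest to Hmox1, other background settings and the dimmer Fth1 probe were added after seeing the data. The limma fit was tested on simulated data. Alternatives covered background, offset, scaling, filter, the deposited table, replicate block, variance model, array weights, probes per gene and leaving out each array. In the alternative without background correction the offset of 16 was still added. The labels number the replicates and give passages 2 to 4 without tying them to arrays. Whether each replicate was a separate culture is therefore not known. A p-value reflects variation among these 6 arrays, which may be technical, and their number limits the precision.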

Additional observations from a re-analysis of the deposited data

How the results depend on the processing

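The 5 called probes (Hmox1, both Blvrb probes, Slc48a1 and Ftl1) passed under each of the 16 alternatives run, and the count of called member probes stayed between 5 and 7. Over all probes the count of 1125 became 2959 without normalization between arrays, 2486 with median scaling, 4568 in the deposited value table, where values and design changed together since it was tested within same-numbered pairs, 579 when dim probes were kept and 3972 with array weights, whose estimation stopped before convergence, and it ranged from 382 to 1550 with 1 array left out. The count of 3 other haem and iron genes became 8, 8, 16, 1 and 10 under the same alternatives, and 1 to 4 with 1 array left out. With the replicate number as a block 1753 probes and 6 of the other genes passed. Deviations of same-numbered arrays correlated at 0.27, -0.04 and 0.32 across probes, and those of the other pairs at -0.39 to 0.27. Not every array correlated best with its own number. With 3 arrays a group these values cannot decide whether same-numbered arrays were paired, and the main test treated them as unpaired. Values that did not pass changed sign in places. Tfrc went to -0.013 and -0.079 (brighter and dimmer probe), Bach1 to -0.21 and Aco1 to -0.14 without normalization between arrays, and the dimmer Tfrc probe to -0.037, Bach1 to -0.17 and Aco1 to -0.097 with median scaling. With 1 array left out, Tfrc ranged from -0.25 to 0.62 and from -0.31 to 0.57, Bach1 from -0.11 to 0.23, Ireb2 from -0.24 to 0.16 and Blvra from -0.19 to 0.042. Leaving out an array lowers the number of samples. Another detection filter changed the set of tested probes but left these log2 changes the same. The cause of the differences was otherwise not tested. Hmox1 is limited by signal near background on the untreated arrays.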

Other observations

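In both groups the array with the highest Tfrc intensity had the lowest Slc40a1 intensity. Among untreated arrays this was array 1, with 3268 for Tfrc and 108.4 for Slc40a1, and among withaferin A arrays it was array 2, with 4005.4 and 276.7. The order was fully opposite on the untreated arrays (Tfrc lowest and Slc40a1 highest on array 2) and not on the withaferin A arrays, where Slc40a1 was highest on array 1 and Tfrc lowest on array 3. With 3 arrays a group this was not tested. The 3 genes whose mean-centred log2 values lay closest to Tfrc, looked up after its spread had been seen, were E2f8, a repressor of the E2F family, Ybx3, a cold shock domain protein gene, and Kti12, at root mean square differences of 0.22, 0.23 and 0.25. E2f8 read 164.2, 99.6 and 106.8 in untreated cells and 109.6, 146.5 and 94.1 after withaferin A, a dim signal. It was highest on the same array of each group as Tfrc, and its change did not pass (log2 change 0.16, limma adjusted p = 0.833). Both features follow from choosing genes by their likeness to Tfrc and are not separate results.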
